A study of Mus musculus with 48 samples.

Results

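Mitochondrially encoded transcripts are the RNAs copied from the mitochondrial chromosome, chrM, and were taken as every gene whose mouse symbol starts with mt-. Of the 54331 genes in the deposited tables, 37 met this rule: 13 mRNAs, 2 rRNAs and 22 tRNAs. Counts were found for the 13 mRNAs and the 2 rRNAs. The 22 tRNAs were listed at 0 in all 48 libraries. For a gene that can be counted, a 0 allows at most 3 counts per library. That is 0.0621 to 1.17 CPM (counts scaled to a common library total) depending on the library. Whether tRNAs could be counted in these libraries was not tested, so their 0 sets no limit on their level.

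The study sequenced polyadenylated RNA of mouse retinal ganglion cells (RGCs), the neurons whose axons leave the eye and end in the lateral geniculate nucleus (LGN) and in the superior colliculus (SC) of the brain. Newly made RNA was marked with ethynyl uridine (EU), a uridine analog injected into the eye, and captured from the target region. Axon-TRAP purified ribosome-bound RNA from the same regions, and eye cells were collected by FACS or by immunopanning (IP). The 48 libraries fall into 15 groups of 2 to 5.

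SC TRAP was done on fmr1ko mice at postnatal day 14 (P14; 3 libraries) and on wild-type mice at P10 (3 libraries) and P14 (5 libraries), and LGN TRAP on wild-type mice at P14 (3 libraries). SC EU was done on fmr1ko mice at P14 (3 libraries), and on sarm1ko mice, labelled P14 with a 7-day chase and axotomized (3 libraries). Wild-type SC EU covered P10 with a 4-day chase (3 libraries), P10 (3 libraries), P14 (5 libraries) and 8 weeks (3 libraries), and wild-type LGN EU covered P14 (2 libraries). All eye libraries were from P14: FACS of fmr1ko eyes (3 libraries) and of wild-type eyes (3 libraries), EU-captured RNA of wild-type IP cells (3 libraries) and total RNA of wild-type IP cells (3 libraries). Every group but sarm1ko was labelled as not axotomized. The labels name no allele for either knockout and no driver for TRAP, and their EU protocol pooled 3 animals. Nothing in them says that libraries came from separate cultures or litters, so the p-values rest on the spread among libraries alone, which may be technical.

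Library totals ran from 2558141 to 48263706 estimated counts. The wild-type P14 SC libraries carry codes of 2 kinds, so each comparison used those whose codes match its other group: replicates 1 and 2 against LGN, and replicates 3 to 5 otherwise. Summed RGC markers were 258 to 2646 CPM in the SC and LGN libraries apart from SC TRAP fmr1ko replicate 2. Summed oligodendrocyte markers in the same libraries were 1523 to 36272 CPM. FACS libraries held 104089 to 180894 CPM of rod photoreceptor markers and 18.1 to 105 CPM of RGC markers, with Pou4f2 at 0 in all wild-type ones. In bulk RNA, fewer cells of a type and less RNA per cell cannot be told apart.

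Fmr1 checks the labels first. Its level was 11.8, 3.11 and 15.7 CPM in SC EU libraries labelled fmr1ko. It was 1.37, 1.74 and 0.421 CPM in the wild-type P14 SC EU libraries of matching code. Wild-type P14 SC EU replicates 1 and 2, with codes of the other kind, held 0 and 8.09 CPM, so with them the groups overlap. The level was 9.43, 3.33 and 11.9 CPM in wild-type P10 SC EU and 14.1, 21.9 and 8.84 CPM in sarm1ko SC EU. It was 0.150, 11 and 2.79 CPM in SC TRAP libraries labelled fmr1ko, against 2.82, 4.05 and 12.3 CPM in wild-type SC TRAP, and it did not pass the test in either capture or in FACS. Fmr1 counts therefore show no loss with the label in EU, where they are above those of the matched wild-type libraries only. They do not separate the groups elsewhere. The deleted part of the gene is not given in the sources used here. Sarm1 was 2.40, 4.37 and 1.25 CPM in sarm1ko libraries, against 26.5, 55.2 and 23.6 CPM in wild-type P14 SC EU (log2 fold change -3.15 ± 0.48 SE, edgeR adjusted p = 0.00229).

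In both the fmr1ko SC TRAP group and the IP total RNA group, 1 library stands apart. SC TRAP fmr1ko replicate 2 held 138005 CPM of rod markers, 33.8 CPM of oligodendrocyte markers and 9.94 CPM of RGC markers, while replicates 1 and 3 held 112 and 103 CPM of rod markers. Its profile goes against its SC label, so the edgeR counts for SC TRAP fmr1ko are given with and without it. In eye IP total RNA, replicate 1 held 6.74 CPM of lens crystallins, against 301341 and 330011 CPM in replicates 2 and 3.

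Mitochondrial DNA is transcribed from both strands as long precursors, and the tRNAs between the genes mark most of the cuts that release single RNAs. Its mRNAs encode subunits of oxidative phosphorylation: mt-Nd1 to mt-Nd6 and mt-Nd4l belong to complex I, mt-Cytb to complex III, mt-Co1, mt-Co2 and mt-Co3 to cytochrome c oxidase (complex IV), and mt-Atp6 and mt-Atp8 to ATP synthase (complex V). They are translated inside the organelle on mitochondrial ribosomes, which contain mt-Rnr1 and mt-Rnr2, the 12S and 16S rRNAs, while all other subunits are made in the cytosol from nuclear genes.

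The genes lie tightly packed on chrM (GRCm38, GENCODE M21 annotation; bases from the reference genome), all on the plus strand except mt-Nd6 among those with counts. In order they are mt-Rnr1 (chrM:70-1024), mt-Rnr2 (chrM:1094-2675), mt-Nd1 (chrM:2751-3707), mt-Nd2 (chrM:3914-4951), mt-Co1 (chrM:5328-6872), mt-Co2 (chrM:7013-7696), mt-Atp8 (chrM:7766-7969) and mt-Atp6 (chrM:7927-8607). They continue with mt-Co3 (chrM:8607-9390), mt-Nd3 (chrM:9459-9806), mt-Nd4l (chrM:9877-10173), mt-Nd4 (chrM:10167-11544), mt-Nd5 (chrM:11742-13565), mt-Nd6 (chrM:13552-14070) and mt-Cytb (chrM:14145-15288). Neighbours overlap, which bears on how reads are split. The sequence that ends mt-Atp8 also starts mt-Atp6 and is 43 bases long (chrM:7927-7969, plus strand), and mt-Nd4l and mt-Nd4 share 7 bases. The 3′ ends of mt-Nd5 and mt-Nd6 share 14 bases on opposite strands, and the Nextera XT libraries do not mark strand.
mt-Atp8 and mt-Atp6: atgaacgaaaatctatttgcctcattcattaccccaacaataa
mt-Nd4l and mt-Nd4: atgctaa
mt-Nd5 and mt-Nd6: ttaatctcgagtaa

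The mRNA ends matter to a study of polyadenylated RNA, because some mitochondrial reading frames lack a whole stop codon that the added A bases complete. Of the 13 annotated mRNAs, 8 end in TAA, 2 in TAG and 3 in a lone T. The last 24 bases of those ending in a lone T are shown with mt-Co1 and mt-Nd1 for comparison, and capitals mark the stop codon or the part of it that is encoded.
mt-Co3: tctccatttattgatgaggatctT
mt-Nd4: aactaattacaggcctgacaataT
mt-Cytb: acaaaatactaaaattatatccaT
mt-Co1: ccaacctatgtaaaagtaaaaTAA
mt-Nd1: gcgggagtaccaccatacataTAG

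Nuclear copies of mitochondrial DNA can take reads from their source genes. A search of all annotated genes against chrM found 11 nuclear pseudogenes that match over at least 80% of their length at 95% identity or more. A block of 7 lies on the minus strand of chromosome 1, 3 lie on chromosome 2 and 1 on chromosome 13. Gm28661 is identical to mt-Co2 over 681 bases and held 1983445 counts over all libraries, 17.8% of those of mt-Co2. Gm10925 is identical to mt-Atp6 over 678 bases and held 12.5% of the counts of mt-Atp6, and Gm29216 matches mt-Co1 at 99.8% and held 5.40% of its counts when summed over all libraries, with far larger shares in single ones. The first 60 bases of mt-Co2 (chrM:7013-7072) show a stretch where a short read cannot be assigned to one or the other. The windows of mt-Co1 (chrM:6390-6449, copy at chr1:24616129-24616188) and of a second copy of mt-Co2 (chrM:7457-7516, copy at chr2:22587471-22587530) show how few bases separate the others. Capitals mark the bases that differ.
mt-Co2 and Gm28661 (chr1:24615506-24615565): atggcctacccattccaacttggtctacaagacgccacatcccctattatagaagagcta
mt-Co1: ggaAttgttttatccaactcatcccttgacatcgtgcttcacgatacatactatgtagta
Gm29216: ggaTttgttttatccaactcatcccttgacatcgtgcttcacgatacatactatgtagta
mt-Co2: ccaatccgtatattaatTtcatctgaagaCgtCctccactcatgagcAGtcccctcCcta
Gm13341: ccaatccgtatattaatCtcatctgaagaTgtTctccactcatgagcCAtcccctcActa

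The split between mt-Co2 and Gm28661 moved from library to library. Gm28661 held counts in 35 libraries and exceeded mt-Co2 in 7. In 5 libraries mt-Co2 was listed at 0, and Gm28661 had counts in all 5. Gm28661 held 23.5%, 48.7% and 13.1% of the pair's counts in SC EU libraries labelled fmr1ko, against 27.9%, 1.09% and 9.89% in wild-type P14 SC EU replicates 3 to 5. In the chased P10 libraries it held 1.17%, 0.228% and 52.4%, so 1 library gave more than its mt-Co2 counts to the copy. Gm29216 held 38.2%, 12.3% and 48.5% of its pair with mt-Co1 in SC EU libraries labelled fmr1ko, against 33.3%, 38.8% and 23.6% in wild-type P14 SC EU replicates 3 to 5. It held 36.8%, 52.9% and 36.9% in P10 SC EU, 6.56%, 10.2% and 4.22% in sarm1ko libraries, and at most 0.848% in IP EU. Values of mt-Co2, mt-Atp6 and mt-Co1 are uncertain by such shares.

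**Figure D1:**
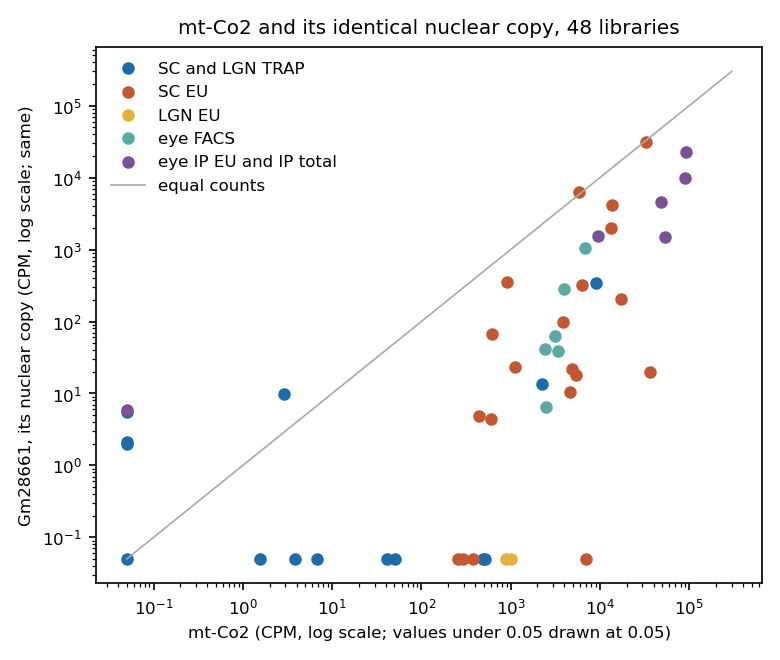
Level of Gm28661, a nuclear pseudogene, against that of mt-Co2 in each of the 48 libraries, both in CPM on log axes, with zeros drawn at the lower edge. Gm28661 held counts in 35 libraries and lies above mt-Co2 in 7.

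Across captures, the summed mt mRNA level differed by several orders of magnitude. SC TRAP libraries labelled fmr1ko held 5258, 60989 and 24796 CPM. Wild-type TRAP libraries held 580, 32.6 and 46.1 CPM in SC at P10, 35.3, 2.57, 2058, 160 and 23.9 CPM in SC at P14, and 41.0, 449 and 10.8 CPM in LGN. All but wild-type P14 SC TRAP replicate 3, at 2058 CPM, were below every library of the other captures.

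In SC EU libraries the sum was 104717, 359061 and 89279 CPM in those labelled fmr1ko, 31122, 53227 and 84259 CPM in sarm1ko ones, and 94254, 21303 and 31748 CPM in the chased P10 ones. By age, wild-type SC EU held 1553, 1172 and 26067 CPM at P10, 19748, 4557, 7361, 3659 and 6375 CPM at P14, and 188885, 58750.0 and 8495 CPM at 8 weeks. LGN EU held 48588 and 19836 CPM. The P10 and 8-week groups each hold 1 library far from the others, P10 replicate 3 high and 8-week replicate 3 low.

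Among the eye libraries, FACS ones held 12207, 13630.0 and 24853 CPM in those labelled fmr1ko and 68022, 30066 and 25339 CPM in wild-type ones. The EU-captured IP libraries held 77608, 542514 and 457661 CPM, and the total IP libraries 1312, 471327 and 421331 CPM. With the rRNAs, mitochondrial genes took 55.2% and 46.5% of counts in EU-captured IP replicates 2 and 3 and 47.3% and 42.3% in total IP replicates 2 and 3.

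**Figure D2:**
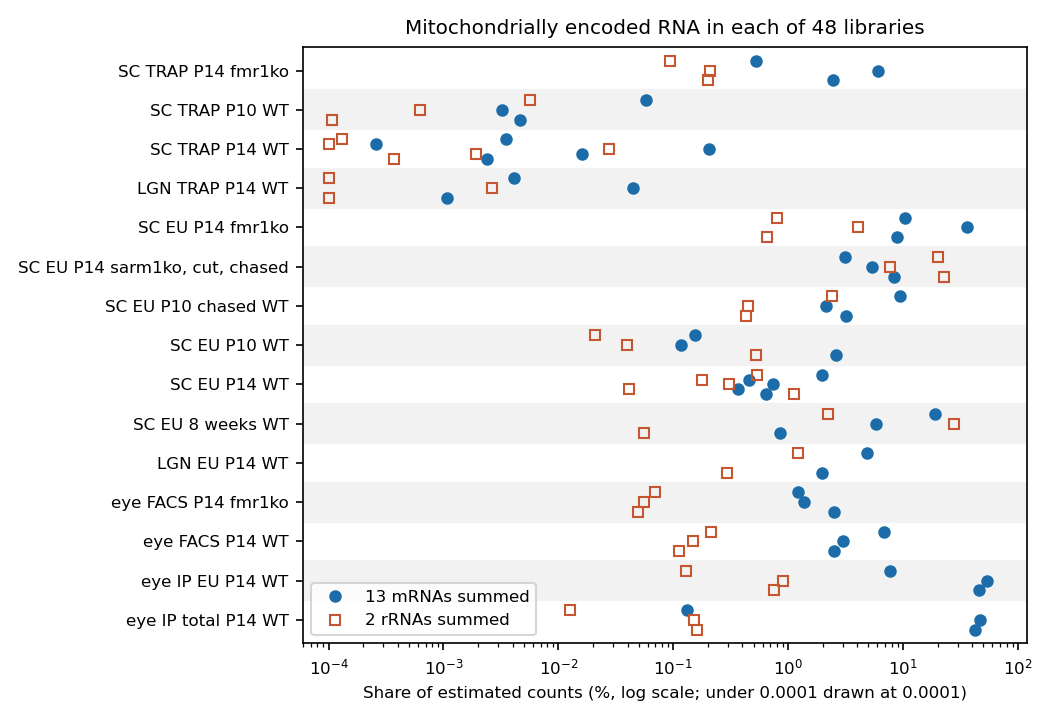
Share of each library's counts in mitochondrial mRNAs (filled circles) and rRNAs (open squares), in percent on a log axis, with 1 row per group. Wild-type TRAP libraries had mRNA sums of 2.57 to 2058 CPM, and IP libraries reached 542514 CPM, with total IP replicate 1 at 1312 CPM.

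Among the mRNAs, transcripts of complex IV were the most abundant per length. On the TPM scale (which divides by transcript length), mt-Co2 was the highest of the 13 in 24 libraries, mt-Co1 in 16, mt-Co3 in 5, mt-Nd1 in 2 and mt-Atp6 in 1. The median share of summed mt mRNA TPM over the 48 libraries was 20.6% for mt-Co2, 19.7% for mt-Co1 and 12.8% for mt-Co3. It was 8.72% for mt-Nd1, 7.64% for mt-Atp6, 6.36% for mt-Cytb, 4.89% for mt-Nd4 and 3.29% for mt-Atp8. The lowest were mt-Nd6 at 1.60%, mt-Nd4l at 1.14%, mt-Nd2 at 1.13%, mt-Nd5 at 0.613% and mt-Nd3 at 0.457%. These shares also vary with how reads are split with the nuclear copies.

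The order varied between groups. By median TPM, mt-Co2 ranked 1st in wild-type FACS and 11th over the 5 wild-type P14 SC TRAP libraries, where its median was 0. Where mt-Co2 was at 0 its copy Gm28661 held counts, and in wild-type P14 SC TRAP replicates 3 to 5 mt-Co2 ranked 6th. mt-Co3 ranked 1st in total IP RNA and 11th in LGN EU. Its share of mt mRNA TPM was 0.241% and 0.711% in LGN EU, and also low, at 0.420% and 1.18%, in wild-type P14 SC EU replicates 1 and 2. The part of capture in these ranks was not tested. In wild-type P14 SC EU replicates 3 to 5, mt-Co1 had 1333 to 3071 TPM, mt-Co3 1086 to 3163 TPM and mt-Co2 1374 to 3206 TPM, so these 3 cannot be ordered. The lowest, mt-Nd5, had 31.9 to 125 TPM there, overlapping mt-Nd3 at 64.7 to 131 TPM. In wild-type FACS, mt-Co2 had 13727 to 27457 TPM and mt-Nd3 389 to 950 TPM. mt-Nd6, the only mRNA from the other strand, ranked 10th in wild-type P14 SC EU and 8th in wild-type FACS.

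**Figure D3:**
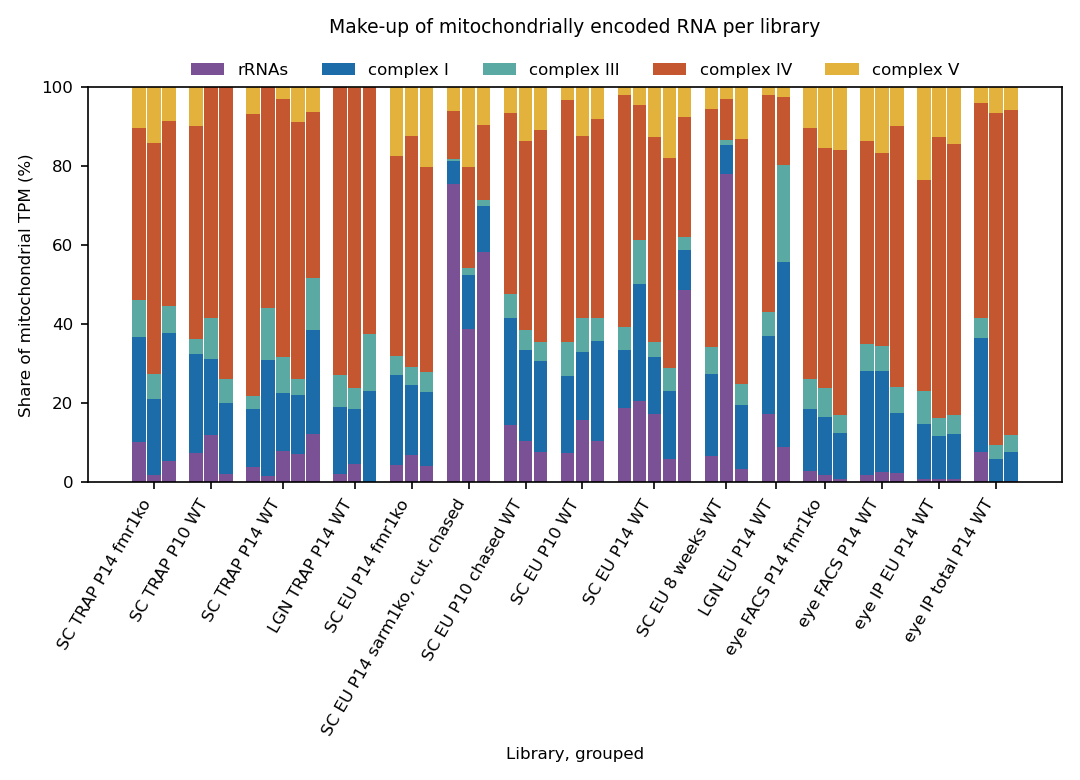
Share of mitochondrial TPM held by rRNAs and by the mRNAs of complexes I, III, IV and V, in percent, with 1 bar per library and libraries set side by side by group. The rRNA part is large in sarm1ko libraries, where single libraries hold 75.4%, 38.7% and 58.4%, against 17.3%, 5.81% and 48.6% in wild-type P14 SC EU replicates 3 to 5.

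The rRNAs did not track the mRNAs. They held 75.4%, 38.7% and 58.4% of mitochondrial TPM in sarm1ko libraries and 4.49%, 6.92% and 3.99% in SC EU libraries labelled fmr1ko. In wild-type P14 SC EU replicates 3 to 5 the share was 17.3%, 5.81% and 48.6%. At 8 weeks it was 6.63%, 77.9% and 3.42%, so replicate 2 of that group is mostly rRNA while the others are mostly mRNA. In FACS it was 0.938% to 2.90% in libraries labelled fmr1ko and 1.76% to 2.48% in wild-type ones. An annotated nuclear rRNA, CT010467.1, was high in the same libraries, at 46.6%, 27.4% and 48.5% of counts in sarm1ko, 33.7% in wild-type P14 SC EU replicate 5 and 23.6% in 8-week replicate 2. In P10 replicate 2 it was 27.9%, with a mitochondrial rRNA share of 15.8%. The part of rRNA carry-over in the mitochondrial rRNA values was not tested.

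EU RNA in SC was set against EU RNA of panned eye cells, a comparison of axons with cell bodies by the labels. RGC markers summed to 1362, 1762 and 1293 CPM in SC EU and 37.5, 410 and 529 CPM in IP EU, so they were lower in the libraries labelled as cell bodies. All 13 mt mRNAs were lower in SC, by 4.19 (mt-Nd6) to 8.09 (mt-Atp8) on the log2 scale. mt-Co1, the catalytic subunit of cytochrome c oxidase, was 2898, 1445 and 2798 CPM in SC EU, against 28124, 266633 and 187409 CPM in IP EU. mt-Atp8, a small subunit of ATP synthase, was 10.3, 6.59 and 12.4 CPM in SC EU, against 528, 1929 and 1871 CPM in IP EU. The groups did not overlap for any of the 13, beside 19.1% of all genes lower without overlap.

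The edgeR test called 13 of 13 lower at adjusted p of 0.00228 to 0.00841, beside 11.4% of all tested genes called lower. mt-Cytb changed by -6.80 ± 0.97 (SE, adjusted p = 0.00361) and mt-Co1 by -7.02 ± 1.31 (adjusted p = 0.00837). The median over the 13 was -6.79, against 0.11 over all genes. The rRNAs did not pass: mt-Rnr2 was 2934, 357 and 10712 CPM in SC EU, against 1128, 7939 and 6411 CPM in IP EU (-0.97 ± 1.18, adjusted p = 0.602), and mt-Rnr1 differed by -2.59 ± 1.09 (adjusted p = 0.120).

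The nuclear subunits of the same complexes were called lower at shares near the 11.4% of all genes. In complex I, 5 of 37 were lower, led by Ndufs1, its largest subunit (-4.50 ± 0.77, edgeR adjusted p = 0.00618), and none higher. In complex III, 2 of 9 were lower, Uqcrb (-6.71 ± 1.09, adjusted p = 0.00525) and Uqcrc2 (-2.77 ± 0.64, adjusted p = 0.0176). In complex IV none of 10 passed in either direction, and in complex V 1 of 14 was lower. Cell type markers moved with this contrast: rod markers were 31.4, 17.5 and 13.5 CPM in SC EU and 130328, 8120 and 13270 CPM in IP EU, and oligodendrocyte markers 14850, 16261 and 10259 CPM in SC EU and 24.4, 86.5 and 42.1 CPM in IP EU. Lens crystallins were 88.1, 159 and 62.3 CPM in SC EU and 252, 2528 and 3091 CPM in IP EU. All 11 rod markers had counts in every IP EU library, and Pdc and Pde6b were at 0 in SC EU. Their part in the result was not tested.

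Ribosome-bound RNA was set against EU RNA in the same region. These are separate captures with separate library totals, so a difference does not measure the part of a transcript on tagged ribosomes. At P14 in SC, mt mRNAs were lower in TRAP, with a median of -4.36 over the 13 on the log2 scale against -0.01 over all genes. mt-Nd2, a membrane subunit of complex I, was 4.23, 0.961 and 0.469 CPM in TRAP, against 92.1, 55.9 and 133 CPM in EU (-5.97 ± 0.83 SE, edgeR adjusted p = 0.00346). mt-Atp6, the proton-channel subunit of ATP synthase, was 32.5, 6.34 and 0.589 CPM in TRAP, against 502, 318 and 348 CPM in EU (-5.19 ± 1.06, adjusted p = 0.0129).

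The 7 called lower were mt-Nd2, mt-Nd3, mt-Nd4l, mt-Nd5, mt-Nd6, mt-Atp8 and mt-Atp6, beside 8.64% of all genes. The other 6 included the most abundant ones. mt-Co1 was 748, 74.2 and 14.9 CPM in TRAP, against 2898, 1445 and 2798 CPM in EU (-3.43 ± 1.08, adjusted p = 0.0570), and mt-Co2 was 490, 2.91 and 0 CPM in TRAP, against 917, 442 and 614 CPM in EU (-2.33 ± 1.73, adjusted p = 0.402). TRAP replicate 3 was the highest TRAP library for all 4 of these, and its mt-Co2 level lies between the EU ones. Without it 12 of 13 were called, beside 2.82% of all genes. mt-Rnr2 was lower too (-6.37 ± 1.64, adjusted p = 0.0272). Nuclear subunits went the other way or did not pass: 7 of 37 in complex I, 3 of 9 in complex III and 2 of 14 in complex V were higher in TRAP, beside 5.73% of all genes, and none was lower. Ndufv2, a core subunit of complex I, changed by 2.20 ± 0.39 (adjusted p = 0.00753).

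At P10 in SC the direction was the same and the calls rested on single libraries. mt-Cytb was 28.2, 4.06 and 2.24 CPM in TRAP, against 204, 172 and 2307 CPM in EU (-6.12 ± 1.23 SE, edgeR adjusted p = 0.00945). In all, 5 of the 12 tested mRNAs were lower (mt-Nd1, mt-Nd4, mt-Cytb, mt-Co2 and mt-Atp8), beside 11.1% of all genes, with a median of -5.40. mt-Nd3 had no count in any P10 TRAP library, against 0, 1.48 and 116 CPM in EU, and was not tested. The count was 12 without TRAP replicate 1, beside 1615 of 16684 genes lower, and 1 without TRAP replicate 2, beside 1358 of 16676. It was 2 without TRAP replicate 3, beside 1001 of 16797, and 2 without EU replicate 1, beside 771 of 16781. Without EU replicate 3 it was 1, beside 1088 of 16614. P10 EU replicate 3 held 26067 CPM of mt mRNA, against 1553 and 1172 CPM in the others.

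In LGN at P14 the fitted difference was larger still, with a median of -7.63 over the 12 tested mRNAs against -0.24 over all genes. mt-Nd4, a core membrane subunit of complex I, was 3.23, 23.2 and 2.94 CPM in TRAP, against 2931 and 3929 CPM in EU (-8.15 ± 1.02 SE, edgeR adjusted p = 0.0156). mt-Cytb, the heme-carrying subunit of complex III, was 3.23, 21.4 and 1.47 CPM in TRAP, against 2982 and 5686 CPM in EU (-8.65 ± 1.13, adjusted p = 0.0167). Of the 12, 8 were called lower, beside 1.17% of all genes. mt-Atp8 was at 0 in all 3 TRAP libraries, against 2.20 and 1.42 CPM in EU, at least 10.9-fold lower with 3 counts per library as the floor. The count was 0 without TRAP replicate 1, where 0 of all 15640 tested genes were called, so that fit could not set mt mRNAs apart. It was 5 without TRAP replicate 3, beside 139 of 15859 genes lower. Leaving out an EU library leaves 1 in that group, so no count is given for it.

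A difference in the TRAP-to-EU ratio between P14 and P10 was tested as an interaction, and 0 of 13 mRNAs were called by edgeR, beside 0.0% of all genes. None of the 13 had an unadjusted p under 0.05, while 2051 of all genes had. Without the filter on low counts, 4 of the 13 were called, and the share of all genes called in that fit is not given.

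Set against sorted eye cells, wild-type SC TRAP again held less. mt-Nd4l, a small membrane subunit of complex I, was 0.600, 0 and 0.0391 CPM in TRAP, against 394, 126 and 29.9 CPM in FACS (-9.84 ± 1.54 SE, edgeR adjusted p = 0.00306). mt-Co1 was 748, 74.2 and 14.9 CPM in TRAP, against 32557, 11120 and 12946 CPM in FACS (-6.27 ± 1.53, adjusted p = 0.0141). All but mt-Co2 passed, 12 of 13 lower beside 22.4% of all genes, with a median of -7.40. Without TRAP replicate 4, 7 of 13 passed, and the share of all genes called in that fit is not given. The nuclear subunits were higher in TRAP: 26 of 37 in complex I (median 1.37), 8 of 10 in complex IV (median 1.69), 4 of 9 in complex III and 8 of 14 in complex V, beside 22.2% of all genes, and none was lower. Cox5a, a nuclear subunit of cytochrome c oxidase, changed by 2.05 ± 0.29 (adjusted p = 0.00224). Rod markers were 29.1, 33.4 and 36.6 CPM in TRAP and 104089 to 180894 CPM in FACS, and their part in these values was not tested.

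**Figure D4:**
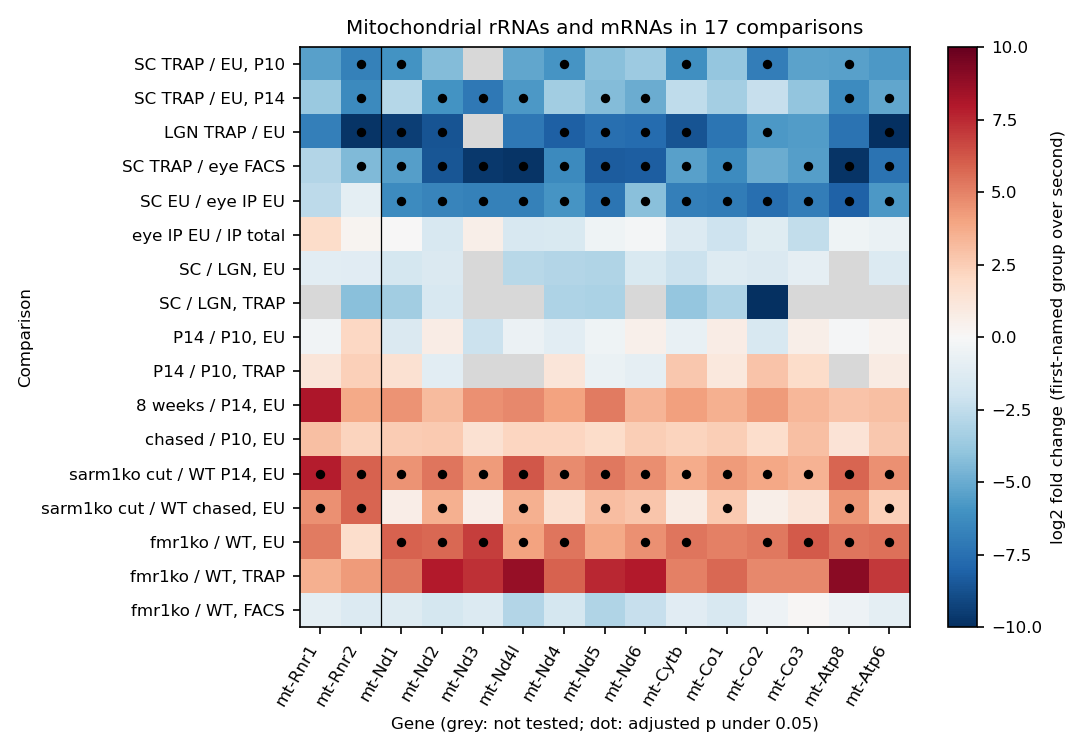
Log2 fold change of 13 mRNAs and 2 rRNAs (columns) in 17 comparisons (rows), red higher and blue lower in the first-named group, with dots on those called at adjusted p under 0.05 and grey where a gene was not tested. All TRAP rows against EU or FACS are blue, and the sarm1ko rows are red in every column.

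SC and LGN were compared within libraries of the same code. No mt mRNA passed in either capture in this fit, which does not pair libraries of the same number. With a replicate block some passed in EU, as given in the closing section. In EU, all 11 tested were lower in SC by the fit (median -1.55, edgeR adjusted p of 1.0, beside 0.0% of all genes), and 5 had an unadjusted p under 0.05. mt-Nd4 was 621 and 208 CPM in SC EU, against 2931 and 3929 CPM in LGN EU. In TRAP, 7 were tested (median -3.13, adjusted p of 1.0, beside 0.0%), and 1 had an unadjusted p under 0.05. mt-Co2 was at 0 in both SC TRAP libraries, against 3.88, 41.1 and 1.54 CPM in LGN TRAP. Gm28661, identical to it in sequence, had 54 and 1 counts in those SC libraries and 0 in LGN TRAP, so the pair summed to 1.98 and 0.0485 CPM in SC TRAP. DESeq2 called 1 lower in each capture, mt-Nd4 in EU (beside 0.252% of genes lower) and mt-Co2 in TRAP (beside 0.27%).

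The mt-Co3 level differed more between the codes in SC EU than between SC and LGN of the same code. Those regions did not overlap either, and LGN EU carried codes of that kind only. mt-Co3 was 41.8 and 35.5 CPM in wild-type P14 SC EU replicates 1 and 2 and 60.4 and 92.7 CPM in LGN EU. It was 1151, 443 and 845 CPM in wild-type P14 SC EU replicates 3 to 5. Its share of mt mRNA TPM was 0.420%, 1.18%, 0.241% and 0.711% in the first 4 libraries and 21.3%, 16.1% and 18.7% in the other 3. mt-Co1 did not split so, at 15654, 1853, 2898, 1445 and 2798 CPM in SC EU replicates 1 to 5. The library codes were compared as they stand in the titles, and what they mark is not given in the sources used here.

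With age, the mt mRNAs in SC showed wide spread. In EU, mt-Co1 was 2898, 1445 and 2798 CPM at P14, against 260, 201 and 5148 CPM at P10. None of the 13 passed by edgeR or DESeq2 (median -0.41, beside 2.03% of all genes called), and none had an unadjusted p under 0.05. Without P10 EU replicate 3 the median became 2.78 and 1 of 13 passed (mt-Co1, beside 0.216% of genes higher), so the direction rests on that library. In TRAP, none of 10 tested passed between P14 and P10 (median 1.14, beside 0.0%), and none had an unadjusted p under 0.05.

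At 8 weeks, all 3 libraries were above P14 replicates 3 to 5 in summed mt mRNA CPM, and replicate 3, at 8495 CPM, was below P14 replicate 1, at 19748 CPM. Scaled instead to nuclear counts without rRNA, nuclear copies and lens crystallins, 8-week replicate 3 held 8661 CPM, below P14 replicate 5 at 9897 CPM. mt-Nd4 was 16152, 6008 and 686 CPM at 8 weeks, against 561, 346 and 476 CPM at P14 (4.01 ± 1.09 SE, edgeR adjusted p = 0.460). mt-Atp8 was 87.9, 87.2 and 20.5 CPM at 8 weeks, against 10.3, 6.59 and 12.4 CPM at P14 (2.85 ± 0.79, adjusted p = 0.460). The 8-week libraries stood above all P14 ones for 7 of the 13 after normalisation, beside 5.47% of genes. All 13 had an unadjusted p under 0.05, none passed adjustment by edgeR (beside 0.0% of genes), and DESeq2 called 13 higher (beside 4.36% of genes). Without 8-week replicate 3 edgeR called 13 of 13, beside 9.49% of genes, with a median of 4.54 instead of 4.01. That replicate held 8495 CPM of mt mRNA, against 188885 and 58750.0 CPM in the others.

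Chased libraries were labelled at P10 and collected 4 days later, a design meant to follow RNA made before the chase. Age at collection and chase therefore differ together from the P10 libraries and cannot be told apart. In summed mt mRNA level all 3 chased libraries were above P10 replicates 1 and 2, while P10 replicate 3 lay among them. mt-Co3 was 11494, 2214 and 3641 CPM after the chase, against 46.9, 157 and 1838 CPM at P10 (3.03 ± 1.06 SE, edgeR adjusted p = 0.196). mt-Nd6 was 272, 161 and 104 CPM after the chase, against 4.30, 9.11 and 81.0 CPM at P10 (2.45 ± 0.80, adjusted p = 0.182). The fit put all 13 higher (median 2.26), 7 had an unadjusted p under 0.05, and none passed by edgeR or DESeq2, beside 0.00597% of genes. Without P10 replicate 3, 5 of 13 passed, beside 0.0678% of genes, and the median was 5.0. Oligodendrocyte markers were 11589, 6626 and 6788 CPM after the chase and 2209, 1523 and 3341 CPM at P10, and their part was not tested.

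In SC EU libraries of axotomized sarm1ko mice, mitochondrially encoded RNA was high. Sarm1 encodes an NAD-consuming enzyme that drives the breakdown of cut axons, and axons without it persist after the cut. Genotype, axotomy, chase and, with the chase, age at collection all differ between these libraries and wild-type P14 SC EU, so they cannot be told apart. mt-Rnr2 was 165865, 65220 and 192732 CPM in sarm1ko libraries, against 2934, 357 and 10712 CPM in wild-type P14 SC EU (5.90 ± 1.33 SE, edgeR adjusted p = 0.00840). mt-Rnr1 was 36911, 12373 and 36583 CPM in sarm1ko libraries, against 120, 52.8 and 547 CPM (7.86 ± 1.23, adjusted p = 0.00242).

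All 13 mRNAs were higher in sarm1ko, beside 16.8% of all genes, by 3.51 to 6.23 with a median of 4.59 against 0.16 over all genes. mt-Co1 was 13101, 18794 and 35842 CPM in sarm1ko, against 2898, 1445 and 2798 CPM in wild-type (4.26 ± 0.75, adjusted p = 0.00348). mt-Atp8 was 177, 426 and 346 CPM in sarm1ko, against 10.3, 6.59 and 12.4 CPM in wild-type (5.80 ± 0.54, adjusted p = 0.00172). mt-Nd4l was 233, 275 and 549 CPM in sarm1ko, against 6.60, 8.53 and 13.1 CPM in wild-type (6.23 ± 0.73, adjusted p = 0.00172). Every sarm1ko library was above each of wild-type replicates 3 to 5 for all 13, beside 30.1% of all genes, and all 13 were called whichever library was left out.

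Nuclear genes of the same complexes moved the other way. In complex I, 29 of 37 fell and 1 rose (median -1.78), in complex III 4 of 9 fell, in complex IV 7 of 10 fell (median -2.70) and in complex V 12 of 14 fell (median -1.80), beside 20.8% of all genes called lower. Cox6a1, a nuclear subunit of cytochrome c oxidase, averaged 31.2 ± 22.6 CPM in sarm1ko and 552 ± 236 CPM in wild-type P14 SC EU (SD, n = 3 each; -3.64 ± 0.39 SE, edgeR adjusted p = 0.00172). Uqcr11, a small subunit of complex III, averaged 11.2 ± 9.43 CPM in sarm1ko and 172 ± 75.2 CPM in wild-type (-3.47 ± 0.42, adjusted p = 0.00172). Complex II, which has no mitochondrially encoded subunit, had 3 of 4 genes lower. Of 13 tested genes for mitochondrial DNA replication and transcription, 3 were higher and 2 lower, near the shares over all genes (16.8% higher and 20.8% lower). Tfb1m (2.67 ± 0.79, adjusted p = 0.0235) and Tfb2m (2.10 ± 0.62, adjusted p = 0.0246), an rRNA methyltransferase and a transcription factor of mitochondria, were among the higher ones. Of 10 translation factors 1 was lower, also no more than over all genes, Tufm, the mitochondrial elongation factor, (-1.97 ± 0.45, adjusted p = 0.00890).

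Against the chased P10 libraries, which were also collected after a chase but not cut, the difference was narrower and uneven among genes. Age, genotype and chase length also differ here. Of 13 mRNAs, 7 were higher in sarm1ko (mt-Nd2, mt-Nd4l, mt-Nd5, mt-Nd6, mt-Co1, mt-Atp8 and mt-Atp6), beside 9.86% of all genes, with a median of 2.39. mt-Atp8 was 177, 426 and 346 CPM in sarm1ko, against 29.4, 35.0 and 47.0 CPM after the P10 chase (4.38 ± 0.45 SE, edgeR adjusted p = 0.000129). mt-Nd2 was 823, 1909 and 3068 CPM in sarm1ko, against 836, 204 and 379 CPM (3.54 ± 0.69, adjusted p = 0.00361). mt-Co2 was 3824, 5448 and 6359 CPM in sarm1ko, against 17387, 4629 and 5807 CPM (0.58 ± 0.60, adjusted p = 0.524), so these groups overlap. The count was 3 without sarm1ko replicate 3, beside 683 of 19262 genes higher, and 4 without chase replicate 2, beside 992 of 18970. The rRNAs were higher in sarm1ko (mt-Rnr1 4.55 ± 1.01, adjusted p = 0.00713; mt-Rnr2 5.81 ± 1.15, adjusted p = 0.00383), and 33 of 37 nuclear complex I genes and 9 of 10 of complex IV were lower, beside 11.3% of all genes.

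Other RNA also differed in its share of counts in the sarm1ko group. CT010467.1 held 46.6%, 27.4% and 48.5% of counts in sarm1ko, against 10.9%, 4.54% and 33.7% in wild-type P14 SC EU. RGC markers summed to 511, 851 and 258 CPM in sarm1ko, against 1362, 1762 and 1293 CPM in wild-type. Isl2 was at 0 in all sarm1ko libraries, as it was in all chased P10 ones. The other 9 RGC markers had counts in every library of both groups. Oligodendrocyte markers were 7565, 13703 and 4081 CPM in sarm1ko and 14850, 16261 and 10259 CPM in wild-type. CPM totals include CT010467.1 and mitochondrial RNA, which lower the CPM of all other genes. Mitochondrial RNA took 23.4%, 13.1% and 31.4% of counts in sarm1ko, against 1.04%, 0.407% and 1.76% in wild-type. In the edgeR fit, Mal (2.47 ± 0.31 SE, adjusted p = 0.00172) and Ermn (4.52 ± 0.74, adjusted p = 0.00273) were higher. Cnp was lower (-1.98 ± 0.32, adjusted p = 0.00273). Scaling on nuclear counts alone also left all 13 mRNAs called, and the part of the marker and rRNA shifts was not tested.

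Libraries labelled fmr1ko were set against wild-type ones in 3 captures, although Fmr1 counts did not show a loss in any of them. The product of Fmr1, FMRP, binds mRNAs in neurons and holds back their translation, and it is missing in fragile X syndrome. In SC EU, mt mRNAs were higher in libraries labelled fmr1ko, by 3.76 to 6.91 with a median of 5.33 against -0.01 over all genes. mt-Nd4 was 14944, 21704 and 10582 CPM in those labelled fmr1ko, against 561, 346 and 476 CPM in wild-type SC EU (5.38 ± 0.65 SE, edgeR adjusted p = 0.0256). mt-Atp6 was 9965, 20710 and 11140 CPM in those labelled fmr1ko, against 502, 318 and 348 CPM in wild-type (5.50 ± 0.67, adjusted p = 0.0256).

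Of the 13, 11 were called higher, beside 0.816% of all genes. mt-Co3 was 13112, 90248 and 15206 CPM in libraries labelled fmr1ko, against 1151, 443 and 845 CPM in wild-type (6.15 ± 1.16, adjusted p = 0.0458). The other 2 were mt-Co1, at 32100, 118574 and 21209 CPM against 2898, 1445 and 2798 CPM (5.06 ± 1.0, adjusted p = 0.0506), and mt-Nd5, at 475, 1522 and 295 CPM against 39.2, 43.1 and 140 CPM (3.76 ± 0.94, adjusted p = 0.0732). Every library labelled fmr1ko was above every wild-type one for all 13, beside 17.1% of genes. Replicate 2 labelled fmr1ko was the highest for each of these 5 mRNAs. CT010467.1 moved with the label, at 0.303%, 0.0764% and 0.634% of counts in libraries labelled fmr1ko, against 10.9%, 4.54% and 33.7% in wild-type. Oligodendrocyte markers were 8911, 8808 and 7961 CPM in those labelled fmr1ko, against 14850, 16261 and 10259 CPM in wild-type. These did not overlap in CPM, but CPM totals include the mitochondrial RNA itself. It took 11.3%, 40.0% and 9.58% of counts in those labelled fmr1ko, against 1.04%, 0.407% and 1.76% in wild-type. Of these markers edgeR called Mag alone, lower (-1.44 ± 0.27 SE, adjusted p = 0.0459). The part of CT010467.1 or of these markers in the result was not tested.

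These calls depend on which libraries enter. Without SC EU fmr1ko replicate 1, 1 of 13 passed, beside 0.0289% of genes, and without wild-type replicate 3 or replicate 4 none passed, beside 0.0% of genes. The rRNAs did not pass: mt-Rnr2 was 6119, 25393 and 5151 CPM in libraries labelled fmr1ko, against 2934, 357 and 10712 CPM in wild-type (1.78 ± 1.18, edgeR adjusted p = 0.387). mt-Rnr1 changed by 5.19 ± 1.41 (adjusted p = 0.0839). For it every library labelled fmr1ko was above every wild-type one, beside 17.1% of genes, while mt-Rnr2 overlapped. Nuclear complex I genes had 3 of 37 higher, beside 0.816% of all genes (Ndufs1 3.96 ± 0.62, adjusted p = 0.0365; Ndufa5 2.34 ± 0.44, adjusted p = 0.0459; Ndufa4 2.62 ± 0.50, adjusted p = 0.0478), and none of complexes III, IV and V passed.

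In SC TRAP, the same direction was seen with all libraries and without SC TRAP fmr1ko replicate 2, the library rich in rod RNA. mt-Nd6 was 122, 338 and 574 CPM in libraries labelled fmr1ko, against 3.07, 0.901 and 0.165 CPM in wild-type SC TRAP. mt-Nd2 was 86.3, 807 and 348 CPM in those labelled fmr1ko, against 4.23, 0.961 and 0.469 CPM in wild-type. mt-Co1 was 1936, 28434 and 9232 CPM in those labelled fmr1ko, against 748, 74.2 and 14.9 CPM in wild-type. All libraries labelled fmr1ko were above all wild-type ones for the 13 in CPM, an order that leaving out replicate 2 cannot change. After normalisation this held for 12 of 13 with all libraries, beside 12.9% of genes.

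With all libraries, the fitted changes were 4.8 to 9.01 (median 7.04), and 11 of 13 had an unadjusted p under 0.05. None passed by edgeR, at adjusted p of 0.0644 to 0.469, beside 0.0% of genes called, while 2879 genes had an unadjusted p under 0.05. DESeq2 called 11, beside 8.66% of genes higher, and limma on log2(TPM + 1) called 8, beside 1.16%. Without replicate 2, edgeR called 5 (mt-Nd2, mt-Nd4l, mt-Nd5, mt-Nd6 and mt-Atp6), beside 6.1% of genes, with a median of 5.43. mt-Nd6 then changed by 7.79 (adjusted p = 0.0372) and mt-Nd2 by 6.66 (adjusted p = 0.0383). Microglia markers were 367 and 276 CPM in replicates 1 and 3 labelled fmr1ko, against 699 to 1172 CPM in wild-type SC TRAP, and their part was not tested.

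In FACS cells the direction was not the same. mt-Nd5 was 138, 115 and 208 CPM in libraries labelled fmr1ko, against 2966, 834 and 260 CPM in wild-type (-3.02 ± 0.77 SE, edgeR adjusted p = 0.131). mt-Co2 was 2415, 2487 and 3920 CPM in those labelled fmr1ko, against 6729, 3151 and 3423 CPM in wild-type (-0.52 ± 0.36, adjusted p = 0.658). For 6 of the 13 all libraries labelled fmr1ko were below all wild-type ones in CPM, and for 7 the groups overlapped, beside 12.9% of genes lower without overlap. None passed by edgeR (median -1.39, beside 0.0593% of genes), 8 had an unadjusted p under 0.05, and DESeq2 called 7 lower, beside 3.35% of genes.

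The difference between captures was tested as an interaction, chosen after the data were seen. The change with the fmr1ko label was larger in SC EU than in FACS for 12 of 13 mRNAs, beside 1.09% of genes, by 6.80 for mt-Nd6, 7.03 for mt-Nd4 and 8.19 for mt-Nd3 on the log2 scale. mt-Nd4 had an edgeR adjusted p of 0.00807, and mt-Atp8 did not pass (5.75 ± 1.42, adjusted p = 0.0621). The count was 4 without wild-type SC EU replicate 3 and 2 without wild-type SC EU replicate 4. Between SC TRAP and FACS, 5 passed (mt-Nd2, mt-Nd3, mt-Nd4l, mt-Nd5 and mt-Nd6), beside 1.03% of genes, and 7 without SC TRAP fmr1ko replicate 2, beside 2.4% of genes. That count was 0 without wild-type SC TRAP replicate 4, without any FACS library labelled fmr1ko, or without wild-type FACS replicate 1 or 2. It was 2 without SC TRAP fmr1ko replicate 3, wild-type SC TRAP replicate 5 or wild-type FACS replicate 3, and 3 without wild-type SC TRAP replicate 3. Apart from the fit without SC TRAP fmr1ko replicate 2, the share of all genes called in these interaction refits is not given. A fall in their counts therefore cannot be told apart from fewer calls over all genes. Between SC TRAP and SC EU none of 13 passed by edgeR, beside 5.92% of genes in either direction, and 3 had an unadjusted p under 0.05. Without SC TRAP fmr1ko replicate 2 again none of 13 passed, beside 14% of genes.

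**Figure D5:**
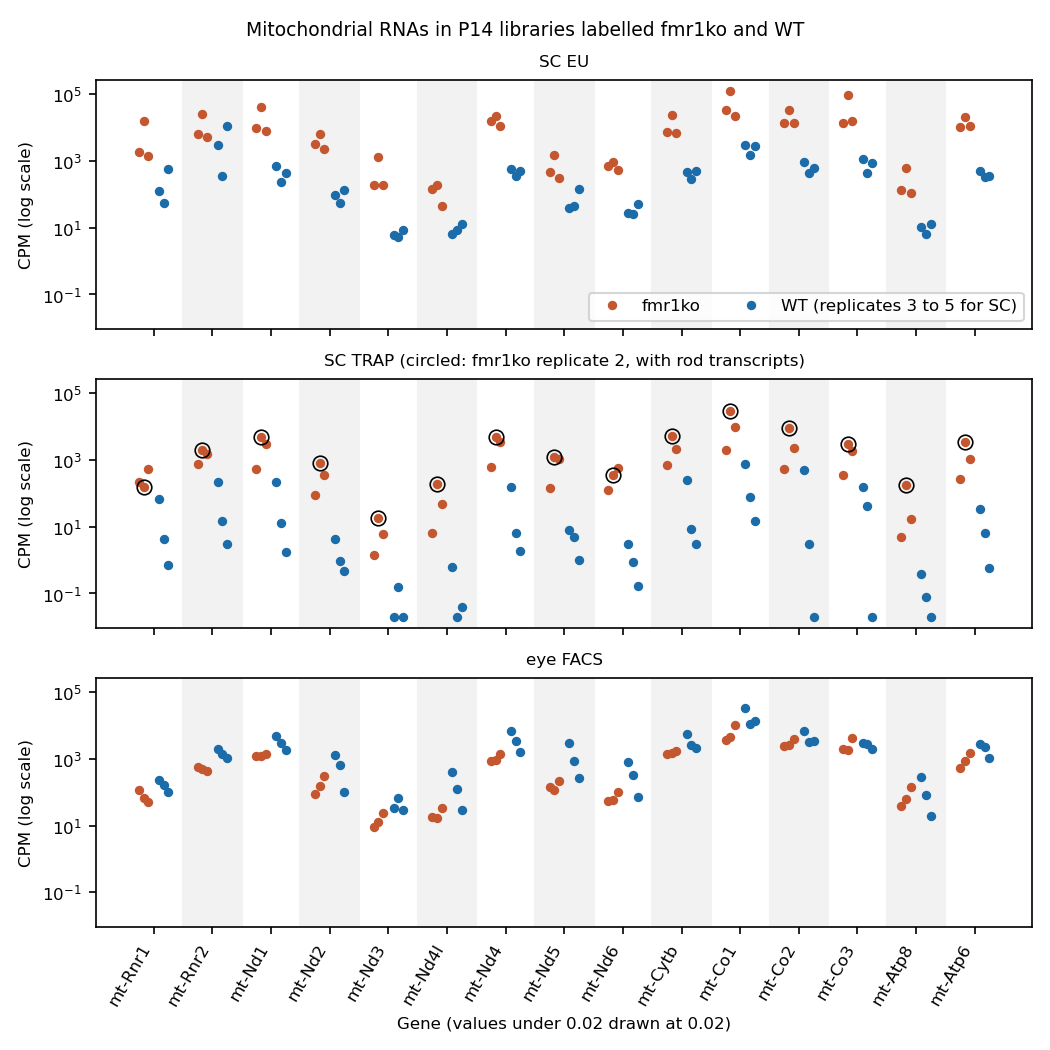
Level of each mt rRNA and mRNA in CPM (log axis) in SC EU, SC TRAP and eye FACS libraries, those labelled fmr1ko left of wild-type ones, with SC TRAP fmr1ko replicate 2 circled and zeros drawn at the lower edge. In EU and TRAP all points labelled fmr1ko lie above the wild-type ones for all 13 mRNAs, and in FACS they lie below for 6 and overlap for 7.

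EU capture was set against total RNA of IP cells to see what the label recovers. mt-Co1 was 28124, 266633 and 187409 CPM in EU-captured RNA, against 957, 255460 and 223515 CPM in total RNA. mt-Nd1 was 5943, 25045 and 25881 CPM in EU-captured RNA, against 51.1, 6795 and 5623 CPM in total RNA (0.05 ± 3.19 SE, edgeR adjusted p = 0.998). None of the 13 passed by edgeR, DESeq2 or limma (median -1.21, beside 0.0% of genes) and none had an unadjusted p under 0.05. Total replicate 1 held 1312 CPM of mt mRNA, against 471327 and 421331 CPM in the others. Leaving out 1 library at a time, this one included, also called 0 of 13.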

How the data were processed

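RNA sequencing of 48 libraries was analysed from the deposited tables. The submitters' processing notes name Salmon and mm10 (versions not given in the sources used here), and the authors deposited estimated counts and TPM per Ensembl gene, with 2558141 to 48263706 counts per library. Amplified cDNA was made into Nextera XT libraries, per the labels' protocols. Symbols came from GENCODE M21, where 54097 of 54331 IDs matched.

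Counts were rounded and tested with edgeR 4.0.16 (quasi-likelihood test, filterByExpr, TMM scaling) in R 4.3.3, fitting only the groups compared. Benjamini-Hochberg adjustment ran over all tested genes, and a gene was called at adjusted p under 0.05. SE is the size of the log2 fold change divided by the square root of F. CPM are counts scaled to the library total. Nuclear copies were found with blastn 2.17.0. Figures were drawn with matplotlib 3.10.9. The fits were tested on simulated counts.

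All 13 mRNAs and 2 rRNAs were described; of nuclear lists, at most 3 members with the smallest adjusted p per comparison were named. Alternatives were RLE size factors, no filter, DESeq2 1.42.0, limma 3.58.1 on log2(TPM + 1), nuclear-only scaling, a replicate block, all P14 SC libraries, and each library left out. Counts of nuclear copies added to their mitochondrial genes, and the interaction models of the fmr1ko label, were chosen after seeing the data. The members and lists were chosen with earlier results of these data known.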

Additional observations from a re-analysis of the deposited data

Results flagged for a closer look

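Single libraries stood apart within the groups of 5, where the gap to the nearest library divided by the whole range exceeded Dixon's critical value of 0.71 for 5 samples. For normally distributed values chance gives this in about 1 in 20 groups. The CPM values used here are skewed, so that rate need not hold, and genes flagged in the same library are not independent. Wild-type P14 SC TRAP replicate 3 stood apart for 12 genes. Its rRNA levels were 67.7 CPM for mt-Rnr1 and 209 CPM for mt-Rnr2. For complex I it held 218 CPM of mt-Nd1, 4.23 CPM of mt-Nd2, 149 CPM of mt-Nd4 and 0.600 CPM of mt-Nd4l. For the other complexes it held 255 CPM of mt-Cytb, 748 CPM of mt-Co1, 490 CPM of mt-Co2, 149 CPM of mt-Co3, 0.376 CPM of mt-Atp8 and 32.5 CPM of mt-Atp6. Replicate 4 stood apart for mt-Nd3, at 0.154 CPM. In wild-type P14 SC EU, replicate 1 stood apart for mt-Co1 at 15654 CPM and mt-Nd6 at 144 CPM, and replicate 5 for mt-Rnr1 at 547 CPM.

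The change with the fmr1ko label differed between SC EU and FACS by the interaction test for 12 mRNAs. The difference in log2 fold change was 7.06 for mt-Nd1, 7.37 for mt-Nd2, 8.19 for mt-Nd3, 7.03 for mt-Nd4, 6.76 for mt-Nd4l, 6.67 for mt-Nd5 and 6.80 for mt-Nd6. It was 6.31 for mt-Cytb, 6.52 for mt-Co1, 5.69 for mt-Co2, 5.89 for mt-Co3 and 6.33 for mt-Atp6. Between SC TRAP and FACS it differed for 5 mRNAs, by 9.67 for mt-Nd2, 8.77 for mt-Nd3, 11.6 for mt-Nd4l, 10.5 for mt-Nd5 and 10.2 for mt-Nd6. Without SC TRAP fmr1ko replicate 2, the library rich in rod RNA, these were 8.35 for mt-Nd2, 7.17 for mt-Nd3, 9.59 for mt-Nd4l, 9.75 for mt-Nd5 and 10.03 for mt-Nd6, and all 5 passed.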

How the results depend on the processing

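The count of mt mRNAs called stayed within 1.5 times of that reported in 228 settings over all comparisons and moved more in 56. RLE size factors and scaling on nuclear genes alone moved none by more, though RLE shifted the median of all genes by over 0.1 in a few fits, most in LGN TRAP against EU (-0.47 instead of -0.24). Leaving out 1 library at a time gave 11 to 13 in SC EU against IP EU, 5 to 12, 1 to 12 and 0 to 8 in TRAP against EU (P14, P10, LGN), 0 to 1 in P14 against P10 EU, 0 to 13 at 8 weeks, and 0 to 5 after the chase. It gave 13 in all sarm1ko fits against P14 and 3 to 10 against the chase. For the fmr1ko label it gave 0 to 13 in EU and 0 to 5 in TRAP, and 7 to 12 in TRAP against FACS. The interactions gave 2 to 12 (EU against FACS) and 0 to 7 (TRAP against FACS). With no filter on low counts, 13 were called in TRAP against EU at P14, beside 1944 of 26865 genes lower. At P10 13 were called, beside 2329 of 25623 genes lower. That fit called 13 after the chase, beside 581 of 27239 genes higher, and 10 at 8 weeks, beside 488 of 28435 higher. The same fit called 1 in each region contrast, beside 7 genes higher and 12 lower of 23995 in EU, and 21 each way of 24214 in TRAP. With age it called 3 in EU, beside 485 genes higher and 608 lower of 26210. It called 4 in TRAP with age, beside 189 genes higher and 644 lower of 24569. In the age interaction of TRAP to EU it called 4, with the share of all genes not given. DESeq2 called 1 in TRAP against EU at P10, beside 2235 of 15733 genes lower. It called 1 in each region contrast, beside 0.252% of genes lower in EU and 0.27% in TRAP, and 13 at 8 weeks, beside 4.36% higher. For the fmr1ko label it called 11 in TRAP, beside 8.66% of genes higher, and 7 in FACS, beside 3.35% lower. Limma on log2(TPM + 1) called 12 in TRAP against EU at P14, beside 1320 of 16277 genes lower. It called 3 in sarm1ko against the chase, beside 485 of 17991 genes higher, and 8 in fmr1ko TRAP, beside 1.16% higher. All 5 wild-type P14 libraries gave 7 in fmr1ko TRAP, and adding nuclear copies gave 9 in TRAP against EU at P10. The cause was not tested.

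Replicate numbers were not taken as pairs. Of 12 comparisons with 3 numbered pairs, every correlation of deviations was above 0.1 in 0, and every library correlated best with its own number in 0. SC and LGN share only 2 numbers per capture, too few to decide, and there the correlations were 0.32 in EU and 0.41 and 0.36 in TRAP, each library best with its own number. With the replicate block, 11 were called in TRAP against EU at P14, beside 1317 of 16277 genes lower, and 1 at P10, beside 857 of 15733. It called 4 in SC against LGN EU, beside 35 genes higher and 45 lower of 15448. For the fmr1ko label in EU it called 0, beside 2 of 16546 genes higher.

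Low mt counts limit the TRAP values: wild-type P14 SC TRAP libraries held 53 to 50080 mt mRNA counts, within totals of 20616267 to 27306636 counts.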
